A study of Mus musculus with 12 samples.

Results

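The miR-290 cluster is a group of 7 microRNA (miRNA) hairpins on mouse chromosome 7 that is expressed in early embryos and embryonic stem cells. Each hairpin gives a 5p arm and a 3p arm. The results below are about 9 of these arms, which were chosen by name as the arms outside the main 3p seed family of the cluster: miR-290-5p, miR-291a-5p, miR-291b-5p, miR-292-5p, miR-293-5p, miR-294-5p and miR-295-5p, with miR-290-3p and miR-293-3p. They are 9 of the 1042 mature miRNAs in the deposited table. All 9 had enough reads to be tested, and the remaining 5 arms of the same hairpins are given where an arm is set against its partner.

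Small RNA was sequenced from fibroblasts, from embryonic stem cells and from 3 kinds of reprogrammed cell. The mouse embryonic fibroblasts (MEFs) were C57B6/129SvJae F1 cells (3 libraries). The embryonic stem cells (ESCs) were the line E14, of the 129/ola strain (3 libraries). Induced pluripotent stem cells (iPSCs) were made from those MEFs with a doxycycline-inducible lentivirus carrying Oct4, Sox2, Klf4 and c-Myc (2 libraries). Nuclear transfer ESCs (NT-ESCs) came from a MEF nucleus placed in an oocyte, and NT-iPSCs from an iPSC nucleus placed in an enucleated oocyte (2 libraries each). All pluripotent cells grew on irradiated MEF feeders with LIF. Each kind of cell was 1 line, and its libraries were batches of RNA from that line, so all p-values below measure the spread between RNA batches and not between lines. The strain of the ESCs and their origin from an embryo cannot be told apart in any comparison with reprogrammed cells.

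A miRNA hairpin is trimmed by Drosha and then Dicer, which leaves a short duplex of the 5p and the 3p arm. Usually an Argonaute protein keeps mainly 1 strand, and the seed, bases 2 to 8 of that strand, guides it to its targets. The miR-290 cluster is made as 1 transcript and is the best known miRNA cluster of mouse ESCs, above all for those of its 3p arms whose seeds begin with AAGUGC, which favour the fast ESC cell cycle. The 5p arms are cut from the other side of the same hairpins and carry other seeds. Of the members, miR-290-3p has the letters AAGUGC in its seed but ends it in another letter than the 3p arms of miR-291a, miR-294 and miR-295, and miR-293-3p has another seed.

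The sequences of the 9 arms are shown because their seeds divide them into groups that the read counts below follow only in part. All 9 matched an entry of RefSeq on GRCm38.p6, where miR-290 and miR-292 are now named miR-290a and miR-292a. Letters run 5′ to 3′ and capitals mark the seed.
mmu-miR-290-5p: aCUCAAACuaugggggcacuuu
mmu-miR-292-5p: aCUCAAACugggggcucuuuug
mmu-miR-293-5p: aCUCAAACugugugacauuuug
mmu-miR-294-5p: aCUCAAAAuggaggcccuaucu
mmu-miR-295-5p: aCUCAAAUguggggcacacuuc
mmu-miR-291a-5p: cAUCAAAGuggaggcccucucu
mmu-miR-291b-5p: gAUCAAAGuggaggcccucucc
mmu-miR-290-3p: aAAGUGCCgccuaguuuuaagccc
mmu-miR-293-3p: aGUGCCGCagaguuuguagugu

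The arms miR-290-5p, miR-292-5p and miR-293-5p share the seed CUCAAAC. The seeds of miR-294-5p and miR-295-5p differ from it in the last letter only. The seed AUCAAAG is shared by miR-291a-5p and miR-291b-5p, which differ at 2 of 22 bases, C1G and U22C, counted from the 5′ end of miR-291a-5p. Both differences lie at the ends, so reads that lack the end bases fit both arms, and how the authors divided such reads is not given in the sources used here. The 2 members from the 3p side are also related: bases 3 to 10 of miR-290-3p and bases 1 to 8 of miR-293-3p are the same run, AGUGCCGC, but the start of miR-293-3p is shifted so that its seed is GUGCCGC. Among the 807 miRNAs of the table with a RefSeq sequence, none outside the members carried any of these 6 seeds. The others, with miR-292-3p of the same cluster among them, had no sequence there and were not searched.

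The hairpins lie on the plus strand within 2216 bases, chr7:3218626-3220841 (GRCm38), in the order miR-290, miR-291a, miR-292, miR-291b, miR-293, miR-294 and miR-295. In GENCODE M21 the 6 hairpins after miR-290 overlap exon 10 of Nlrp12, an inflammasome-related gene on the opposite strand, outside its coding sequence, and the hairpin of miR-290 lies outside that gene. Short antisense hairpins, Mir290b and Mir292b, overlap miR-290 and miR-292. The hairpin of miR-290, chr7:3218626-3218708, is shown because both of its arms are members, with miR-290-5p at bases 14 to 35 and miR-290-3p at bases 49 to 72 in capitals.
Mir290a hairpin: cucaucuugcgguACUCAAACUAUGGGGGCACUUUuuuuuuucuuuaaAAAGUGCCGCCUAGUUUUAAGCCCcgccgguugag

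The libraries held 4863365 to 8608689 miRNA reads each, and levels are given as CPM, reads per 1000000 miRNA reads of the library. A list of 10 arms known from fibroblasts summed to 312639 to 361510 CPM in MEFs, 134438 to 159522 CPM in ESCs and 47698 to 67866 CPM in the reprogrammed cells, and miR-21-5p and miR-143-3p made up most of the sum in MEFs and ESCs. The separate miR-302 cluster of pluripotent cells stood at no more than 0.372 CPM in MEFs and at 190 to 1442 CPM in the pluripotent libraries. Of the 10 fibroblast arms, 7 were higher in every ESC library than in every reprogrammed library, such as miR-21-5p at 95115 to 116758 CPM against 19156 to 46210 CPM. The arms miR-143-5p and miR-199a-3p were lower in ESCs, the latter at 1356 to 1707 CPM against 9942 to 33868 CPM, and 1 arm overlapped. The part of these differences in the values below was not tested. In bulk RNA, fewer cells of a type and less RNA per cell cannot be told apart.

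The reprogrammed libraries stood apart from both other kinds in how reads divide between the arms of hairpins. Over the 108 hairpins with at least 10 reads on both arms in all 12 libraries, the log2 ratio of 5p to 3p reads differed between ESCs and MEFs in 33.3% (limma, Benjamini-Hochberg adjusted p under 0.05), with a median absolute difference of 0.48. It differed from that of MEFs in 79.6% for iPSCs, 75.9% for NT-ESCs and 80.6% for NT-iPSCs, with median absolute differences of 2.14, 2.11 and 2.06, although these cells were derived from those MEFs. Every comparison of reprogrammed cells with ESCs or with MEFs below crosses this divide, while those of ESCs with MEFs and those between reprogrammed types do not. Sequencing runs are not given in the sources used here, so a run shared by the reprogrammed libraries and reprogramming itself cannot be told apart.

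The 9 arms were all but absent from MEFs and present in every pluripotent library. Together they held 61, 5 and 5 reads in the 3 MEF libraries. Their share of miRNA reads was 6.37% ± 0.54 (SD) over the 3 ESC libraries. It was 12.7% ± 1.88 (SD) over the 2 iPSC libraries, and over the 2 NT-ESC libraries 13.2% ± 0.098 (SD). The 2 NT-iPSC libraries gave 8.89% ± 0.21 (SD). The lowest reprogrammed library, at 8.74%, was above the highest ESC library, at 6.98%. No test was made of this sum, and each arm is described in turn.

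In MEFs, miR-290-3p, miR-291b-5p, miR-294-5p and miR-295-5p had 0 reads in all 3 libraries, and miR-293-3p was the only member with reads in each of them (26, 5 and 3). MEF replicate 13 held most of the reads, including 23 of miR-292-5p and 6 of miR-291a-5p, while MEF replicates 14 and 15 held none of either. Against the limit that a count of 0 allows in a MEF library, 3 reads or up to 0.381 CPM, the ESC levels were at least 139.6-fold higher for miR-290-3p, 138-fold for miR-291b-5p, 204-fold for miR-294-5p and 912-fold for miR-295-5p. This limit covers counting error only, since amplified reads are not independent molecules.

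All 9 arms were higher than in MEFs in each of the 4 pluripotent types by limma on the deposited values (adjusted p of at most 5.8e-06 in any of the 36 tests). Over all 732 miRNAs tested, the share called in either direction was 79.0% for ESCs, 87.8% for iPSCs, 84.0% for NT-ESCs and 83.1% for NT-iPSCs, and 39.9%, 48.6%, 45.9% and 46.7% were called higher. The deposited values are on a log2 scale, and the 9 differences from MEFs ran from 9.72 to 16.2 in ESCs and from 9.46 to 17.7 in the reprogrammed types, where the median over all miRNAs was 0.0 in ESCs and 0.32 to 0.46 in reprogrammed types. Differences of arms without MEF reads depend on the value that the transformation gives to 0 reads, and are not folds. MEF replicate 13 does not decide these calls, which held at 9 of 9 without it.

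**Figure D1:**
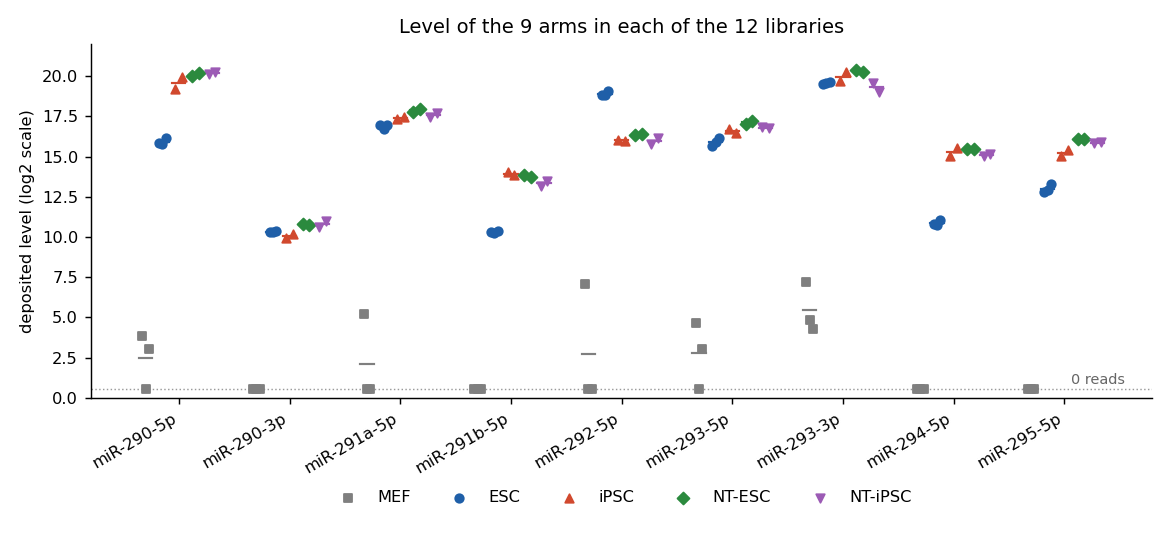
Deposited level (variance stabilized, log2 scale) of each of the 9 arms in each of the 12 libraries. Points are libraries, short lines are group means and the dotted line is the value given to 0 reads. The 5p arms of miR-290, miR-291b, miR-294 and miR-295 are higher in every reprogrammed library than in every ESC library, and miR-292-5p is lower in all of them.

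The order of the arms was not the same in ESCs and reprogrammed cells. In ESCs the leading members were miR-293-3p, which ranked 6th of all miRNAs by reads in each of the 3 libraries, and miR-292-5p, which ranked 10th to 12th. In the reprogrammed cells miR-290-5p, at rank 52 to 58 in ESCs, ranked 3rd to 7th, and miR-292-5p ranked 40th to 62nd. The rank of miR-293-3p was 1st or 2nd in iPSCs, 3rd in NT-ESCs and 9th to 13th in NT-iPSCs. The lowest members were miR-290-3p, at rank 255 to 321 in all pluripotent libraries, and, in ESCs, miR-291b-5p, which ranked as low as 306th.

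**Figure D2:**
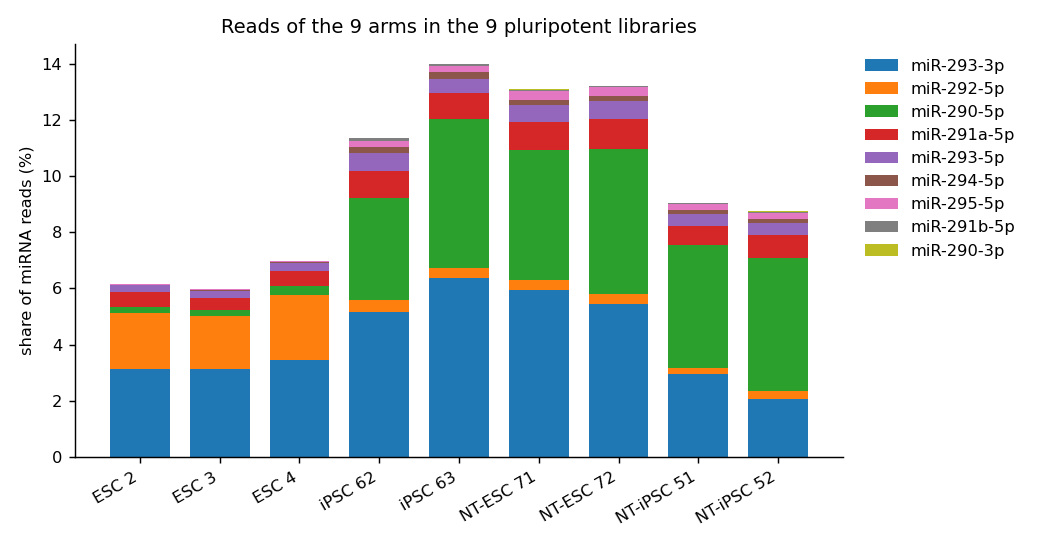
Share of all miRNA reads (%) that each of the 9 arms takes in the 9 pluripotent libraries, as stacked bars that start at 0. In ESCs miR-293-3p and miR-292-5p fill most of the bar, and in the reprogrammed libraries miR-293-3p and miR-290-5p do. The whole bar runs from 5.97% to 6.98% in ESCs and from 8.74% to 14% in reprogrammed libraries.

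Against ESCs, 4 arms were higher in the mean of the 3 reprogrammed types and 1 was lower by limma over all 12 libraries, 5 of 9 where 82.0% of all miRNAs were called, 44.0% higher and 38.0% lower. In 7 arms there was no overlap between the 3 ESC and the 6 reprogrammed libraries, where 71% of all miRNAs had none. Arms with a few reads in some MEF libraries had wide standard errors over all 12 libraries, such as 1.14 for miR-292-5p against 0.12 without the MEF libraries. With the same model on the 9 pluripotent libraries alone, an alternative chosen after seeing the data, 7 of 9 were called, where the background was 81.7%.

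The largest rises were those of miR-294-5p and miR-290-5p. The ESC libraries held 74.6, 69.1 and 89.4 CPM of miR-294-5p. It stood at 2024 and 2458 CPM in iPSCs, 1968 and 1907 CPM in NT-ESCs and 1269 and 1385 CPM in NT-iPSCs. All 6 reprogrammed libraries were far above the 3 ESC libraries, and the difference on the log2 scale was 4.41 ± 0.14 (SE, limma adjusted p = 1.3e-10). The same held for miR-290-5p, which shares its first 7 bases with miR-294-5p. Its levels were 2434, 2284 and 3060 CPM in ESCs, and 36304 and 53074 CPM in iPSCs. In NT-ESCs they were 46050 and 51497 CPM, and in NT-iPSCs 43595 and 47417 CPM. The groups did not overlap and the difference was 4.04 ± 0.54 (SE, limma adjusted p = 2.7e-05), with an SE of 0.18 without the MEF libraries. This arm went from a middling member to the most abundant 5p arm of the cluster.

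The 5p arms of miR-291b and miR-295 rose too. For miR-291b-5p the ESC libraries held 53.7, 47.8 and 56.5 CPM. The reprogrammed libraries held 1021 and 757 CPM (iPSCs), 643 and 582 CPM (NT-ESCs) and 353 and 444 CPM (NT-iPSCs). Their lowest value was thus above the highest ESC value, and the log2 difference was 3.39 ± 0.13 (SE, limma adjusted p = 7.4e-10). For miR-295-5p, the 5p arm of the last hairpin, levels were 296, 314 and 433 CPM in ESCs. They were 2037 and 2241 CPM in iPSCs, 3031 and 2931 CPM in NT-ESCs and 2181 and 2386 CPM in NT-iPSCs. The groups were again separate, and the log2 difference was 2.71 ± 0.14 (SE, limma adjusted p = 6.0e-09).

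The opposite direction was seen for miR-292-5p alone among the called members. It stood at 19828, 18831 and 23329 CPM in ESCs. It stood at 4073 and 3381 CPM in iPSCs, 3635 and 3685 CPM in NT-ESCs and 2085 and 2852 CPM in NT-iPSCs. Every reprogrammed library was below every ESC library, and the level fell by 2.80 on the log2 scale (SE 1.14, limma adjusted p = 0.0404). This p is close to the threshold and passed it no longer when any 1 of the 9 pluripotent libraries was left out, at 0.0632 to 0.103, or with upper quartile scaling (-2.58, limma adjusted p = 0.0692). Without the MEF libraries the SE was 0.12 and the adjusted p 3.4e-08, at the same difference.

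The other 4 arms differed less. Levels of miR-291a-5p were 4342 to 5354 CPM in ESCs and 6748 to 10829 CPM in the reprogrammed libraries, and those of miR-293-5p 2221 to 3123 CPM and 4276 to 6511 CPM. Neither overlapped between the groups, but neither difference passed the test over 12 libraries (0.75 ± 0.82 SE, limma adjusted p = 0.41, and 0.92 ± 0.64 SE, limma adjusted p = 0.20). Both passed without the MEF libraries, at adjusted p of 0.00019 and 0.00011 with SEs of 0.11 and 0.13. Both also passed with voom on the recovered reads of all 12 libraries (adjusted p = 0.00056 and 4.6e-05). For miR-290-3p the ranges were 50.9 to 55.5 CPM and 57.2 to 79.8 CPM. On the deposited scale, which divides by size factors and not by total reads, the groups overlapped and iPSCs were lower than ESCs. For miR-293-3p they were 31272 to 34306 CPM in ESCs and 20442 to 63802 CPM in reprogrammed cells, on both sides of the ESC values. Their log2 differences of 0.22 ± 0.16 and 0.30 ± 0.50 (SE) did not pass with limma (adjusted p = 0.23 and 0.59), nor without the MEF libraries (0.14 and 0.12). An adjusted p over 0.05 does not show that such arms are alike.

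The scaling of the libraries moves these differences together. The median difference of all miRNAs between reprogrammed cells and ESCs was 0.24 on the deposited scale, and total reads, upper quartile and a trimmed mean shifted it by 0.12, 0.20 and -0.17. The difference of miR-290-3p, 0.22, is close in size to these shifts. It was 0.047 with the trimmed mean, and it passed the test with upper quartile scaling (0.44, adjusted p = 0.025). The signs of the 9 mean differences from ESCs held under all 3 scalings.

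**Figure D3:**
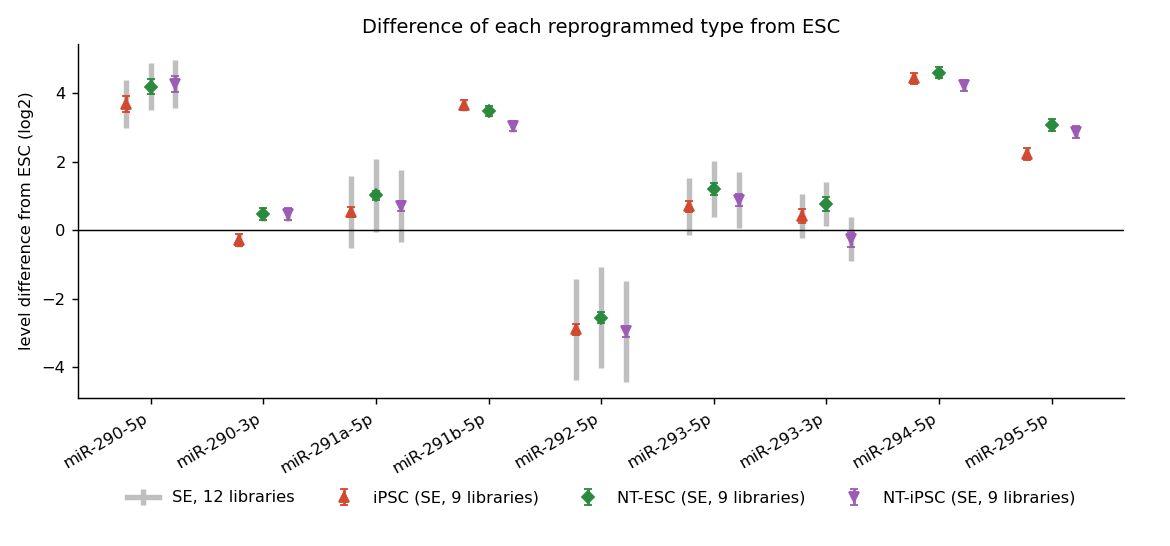
Difference of each reprogrammed type from ESC in the deposited level (log2) for the 9 arms. Coloured bars are the SE from the 9 pluripotent libraries and grey bars the SE from all 12 libraries, which is wider for the arms with a few MEF reads. The 3 types lie close together for miR-292-5p (-2.95 to -2.55) and miR-294-5p (4.22 to 4.59), and farther apart for miR-290-3p (-0.28 to 0.48) and miR-293-3p (-0.27 to 0.76).

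Taken singly, each reprogrammed type had 4 of 9 members called against ESCs, the 5p arms of miR-290, miR-291b, miR-294 and miR-295, all higher, where 75.8% of all miRNAs were called for iPSCs, 75.8% for NT-ESCs and 77.6% for NT-iPSCs. The shares called higher were 39.8%, 39.8% and 41.1%. Without the MEF libraries the counts were 7, 9 and 8, where the background was 77.9%, 78.1% and 79.2%. Without MEF replicate 13 alone, which held most of the MEF reads, the count for NT-ESCs was 7, where 77.2% of all miRNAs were called. The 3 comparisons share their ESC libraries, so that their likeness is not independent. For miR-290-5p the differences were 3.67, 4.19 and 4.27 in iPSCs, NT-ESCs and NT-iPSCs, and for miR-295-5p 2.22, 3.06 and 2.86. The difference of miR-293-3p was 0.41, 0.76 and -0.27. Only that in NT-ESCs passed without the MEF libraries (limma adjusted p = 0.0094), and without NT-iPSC replicate 52 the value in NT-iPSCs was 0.02.

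The arms with the seed CUCAAAC exchanged their leading member while their sum moved less. In ESCs the 3 arms summed to 23614 to 29512 CPM, of which miR-292-5p gave 79.1% to 81.0%, miR-290-5p 9.67% to 10.4% and miR-293-5p 9.07% to 10.6%. In the reprogrammed libraries they summed to 46888 to 61579 CPM, and there miR-290-5p gave 77.4% to 87.0% and miR-292-5p 4.16% to 8.69%. The share of miR-293-5p, 7.83% to 13.9%, took in its ESC range. In the seed AUCAAAG, miR-291a-5p kept the lead at 98.9% to 99.0% of reads in ESCs and 90.5% to 95% in the reprogrammed libraries. The shares of 1 seed are fractions of a whole, so that a gain of 1 arm lowers the others.

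Between the reprogrammed types few members differed. Against iPSCs, 2 of 9 were called in NT-ESCs, where 25.7% of all miRNAs were, and 3 of 9 in NT-iPSCs, where 26.5% were. Levels of miR-290-3p were 57.2 and 59.8 CPM in iPSCs, 79.8 and 74.4 CPM in NT-ESCs and 58.5 and 77.8 CPM in NT-iPSCs. It was higher in NT-ESCs by 0.76 ± 0.23 on the log2 scale (SE, limma adjusted p = 0.034) and in NT-iPSCs by 0.75 ± 0.23 (SE, limma adjusted p = 0.0347). In CPM the lower NT-iPSC library lay between the 2 iPSC libraries, and with total reads scaling neither difference passed (0.40 and 0.21). For miR-295-5p the differences were 0.84 ± 0.20 and 0.64 ± 0.20 (SE, limma adjusted p = 0.0104 and 0.0347), also lost with total reads scaling (0.48 and 0.09). In NT-iPSCs miR-291b-5p was lower than in iPSCs by a log2 difference of -0.61 ± 0.19 (SE, limma adjusted p = 0.0356), which was lost with upper quartile scaling (-0.53, limma adjusted p = 0.0664).

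With 2 libraries a type these calls are fragile. The count of 2 in NT-ESCs fell to 0 without iPSC replicate 62, NT-ESC replicate 71 or NT-ESC replicate 72, and to 1 without ESC replicate 2 or iPSC replicate 63. The count of 3 in NT-iPSCs fell to 0 without the same 3 libraries, and to 1 without ESC replicate 2, iPSC replicate 63, NT-iPSC replicate 51 or NT-iPSC replicate 52. The shares of all miRNAs called in the same fits are not given here, so a loss particular to the members is not shown. Between NT-iPSCs and NT-ESCs limma called 0 of 9 members, where 12.8% of all miRNAs were called. Of these 9, 1 had an unadjusted p under 0.05, as had 29.5% of all miRNAs. The voom test called 1, miR-293-3p, where it called 23.5% of all miRNAs. So did limma without MEF replicate 13 (background 17.8%) or without all MEF libraries (adjusted p = 0.02, background 18.6%). Its levels were 59426 and 54345 CPM in NT-ESCs and 29619 and 20442 CPM in NT-iPSCs, without overlap, and its difference was -1.02 ± 0.70 (SE, limma adjusted p = 0.36 over 12 libraries). The other differences between these types were within -0.44 and 0.08.

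Arms of 1 hairpin come from 1 precursor, so their ratio needs no scaling between libraries. It was taken as the log2 of 5p over 3p reads, with 1 read added to each, in the 9 pluripotent libraries, and tested by limma over the 142 hairpins with at least 10 reads on both arms in each of them. All 7 hairpins of the cluster differed between reprogrammed cells and ESCs, where 84.5% of all hairpins did. In 6 of 7 the libraries did not overlap, where 78.2% of hairpins had no overlap. The 5p side gained in 6 hairpins and lost in that of miR-292, where 35.9% of all hairpins moved toward 5p and 48.6% toward 3p.

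In 3 hairpins the leading arm changed. The 5p arm gave 21% to 25.9% of the reads of miR-291a in ESCs and 80.3% to 88.2% in the reprogrammed libraries. The log2 ratio went from -1.76 to 2.41, a difference of 4.17 ± 0.21 (SE, limma adjusted p = 6.8e-10). Its 3p arm, of the AAGUGC family, fell from 15123 to 20111 CPM in ESCs to 1235 to 2385 CPM, so that most of the change is on the side of the partner. For miR-292 the change was the opposite: 5p gave 86.8% to 88.3% of reads in ESCs and 15.9% to 25.8% in reprogrammed cells, a log2 difference of -4.89 ± 0.20 (SE, limma adjusted p = 1.1e-10). Here miR-292-3p went from 2872 to 3080 CPM in ESCs to 8954 to 19500 CPM while miR-292-5p fell. For miR-291b the 5p share went from 35.2% to 41.2% in ESCs to 58.2% to 78.5%, a log2 difference of 1.93 ± 0.23 (SE, limma adjusted p = 3.4e-06). Counted as a switch where all 3 ESC libraries lay on 1 side of equal reads and all 6 reprogrammed libraries on the other, the change was seen in 27 of all 142 hairpins, 19.0%. By the sign of the mean ratio alone it was seen in 36, 25.4%.

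**Figure D4:**
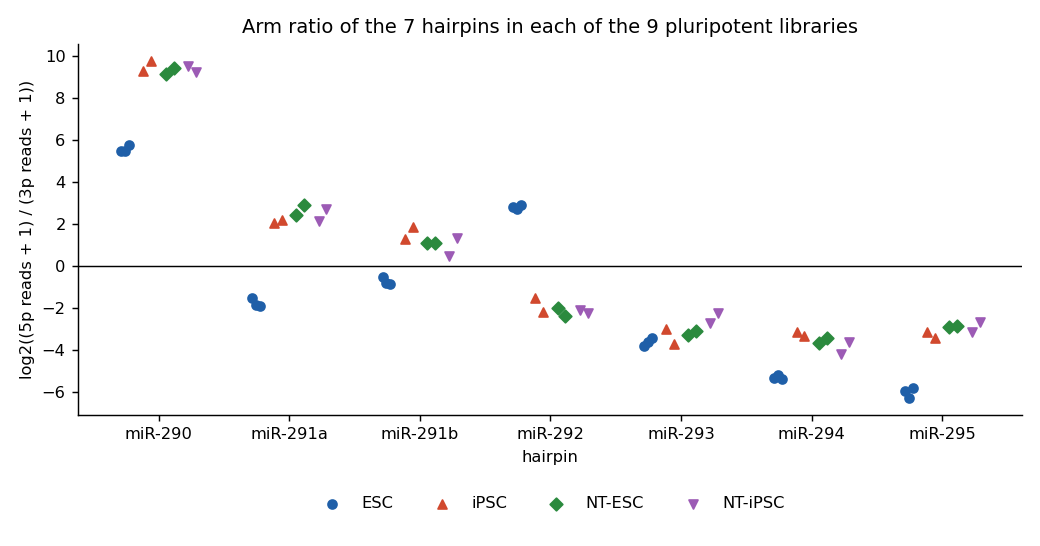
Log2 ratio of 5p to 3p reads (1 read added to each) of the 7 hairpins in each of the 9 pluripotent libraries. Points are libraries and the line at 0 marks equal reads on both arms. The hairpins of miR-291a and miR-291b go from below 0 in ESCs to above 0 in all 6 reprogrammed libraries, miR-292 goes the other way, and the ESC and reprogrammed points of miR-293 overlap.

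The other 4 hairpins kept their leading arm. In miR-290 the 5p arm led throughout, with log2 ratios of 5.48 to 5.78 in ESCs and 9.17 to 9.79 in the reprogrammed libraries (difference 3.82 ± 0.20 SE, limma adjusted p = 9.2e-10). Since miR-290-3p moved little, the ratio follows the rise of miR-290-5p. In miR-294 and miR-295 the 3p arm led, but the 5p share rose from 2.33% to 2.63% up to 5.07% to 10.2%, and from 1.25% to 1.73% up to 8.53% to 13.3%. Their log2 differences were 1.74 ± 0.20 and 3.0 ± 0.20 (SE, limma adjusted p = 2.5e-06 and 1.1e-08). Both arms of miR-294 were more abundant in reprogrammed cells, miR-294-3p going from 2558 to 3753 CPM in ESCs to 17126 to 25145 CPM, whereas miR-295-3p stood at 18716 to 24814 CPM and 15515 to 24016 CPM. For miR-293, whose arms are both members, the ranges overlapped and the difference was 0.62 ± 0.22 (SE, limma adjusted p = 0.019). This call was lost without ESC replicate 2 (0.53, adjusted p = 0.082) or ESC replicate 3 (0.62, adjusted p = 0.0544).

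Taken by type, the hairpins called against ESCs were 6 of 7 in iPSCs, where 80.3% of all were, 6 of 7 in NT-ESCs, where 78.9% were, and 7 of 7 in NT-iPSCs, where 83.1% were. The hairpin not called in the former types was that of miR-293. Between the reprogrammed types limma called 0 of 7 hairpins in each of the 3 comparisons, where 3.52%, 0.0% and 0.0% of all hairpins were called for NT-ESCs against iPSCs, NT-iPSCs against iPSCs and NT-iPSCs against NT-ESCs. At an unadjusted p under 0.05 the counts were 0, 2 and 1, where 18.3%, 20.4% and 8.45% of all hairpins passed. No alternative gave a call there, and the differences ran from -0.68 to 0.86. The largest was that of miR-293 between NT-iPSCs and iPSCs (limma adjusted p = 0.14).

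**Figure D5:**
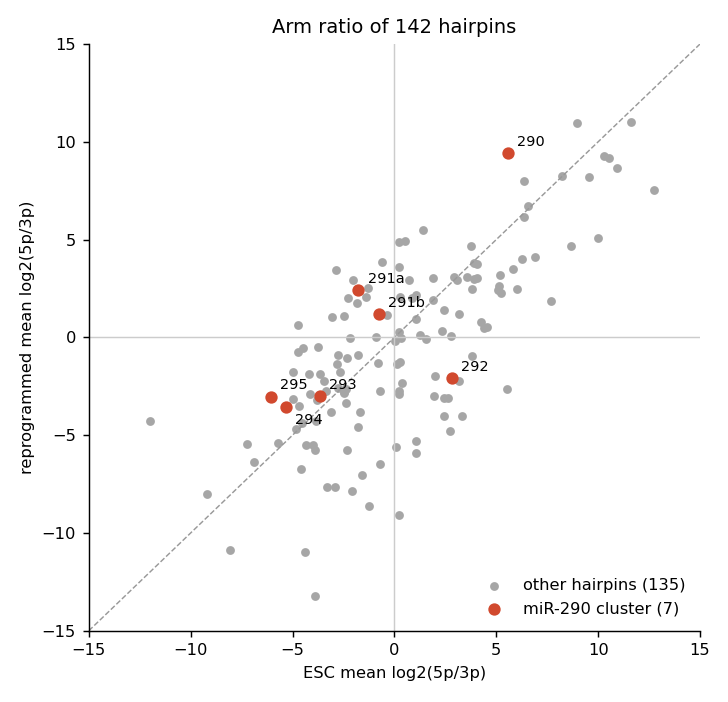
Mean log2 ratio of 5p to 3p reads of 142 hairpins in ESCs (x axis) and in reprogrammed cells (y axis). Red points are the 7 hairpins of the cluster, and the dashed line marks equal ratios. The cluster is part of a wide scatter: 84.5% of all hairpins differed, and the median absolute difference was 2.11 over all hairpins and 3.0 over the 7.

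Nor was the size of the change particular to the cluster on this measure. The median absolute difference in arm ratio between reprogrammed cells and ESCs was 2.11 over the 142 hairpins and 3.0 over the 7. The largest single change was that of miR-140, where the log2 ratio went from -3.90 to -13.2. In level, the median absolute difference was 2.00 over all 732 miRNAs and 2.71 over the members. Between the reprogrammed types it was 0.48 to 0.62 over all miRNAs and 0.32 to 0.59 over the members.

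The arms with the clearest difference from ESCs were like many other miRNAs over the 9 pluripotent libraries. By Pearson's r of the deposited values, the miRNA outside the cluster most like miR-290-5p was miR-128-3p (r = 0.997), and 96 of the 717 miRNAs compared had an r of 0.95 or more. For miR-291b-5p it was miR-669l-3p (r = 0.997, 107 miRNAs), for miR-292-5p miR-135b-3p (r = 0.996, 105 miRNAs), for miR-294-5p miR-362-3p (r = 0.997, 114 miRNAs) and for miR-295-5p miR-1839-5p (r = 0.995, 59 miRNAs). These libraries fall into ESC and reprogrammed sets, which sets such values. Fewer were as like miR-291a-5p (miR-181d-3p, r = 0.984, 4 miRNAs) and miR-293-5p (miR-450b-3p, r = 0.969, 4 miRNAs). None reached 0.95 for miR-290-3p (miR-383-5p, r = 0.939) or miR-293-3p (miR-211-5p, r = 0.937), the 2 arms without a shared step between ESCs and reprogrammed cells.

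The other cluster that marks pluripotent cells, that of miR-302 and its neighbour miR-367, served as a list for comparison. Of its 10 arms 9 were tested, and 6 were called higher and 1 lower in the reprogrammed mean against ESCs, where 44.0% and 38.0% of all miRNAs were. The arm called lower was miR-302b-3p, at 126 to 136 CPM in ESCs, 132 and 149 CPM in iPSCs and 18.9 to 27.7 CPM in the other reprogrammed libraries (difference -1.73, limma adjusted p = 0.0191). Its partner miR-302b-5p had 0 reads in all 3 ESC libraries and 0.641 to 3.78 CPM in the reprogrammed libraries, so that its difference rests on the value given to 0 reads. Against iPSCs, 5 of 9 were lower in NT-ESCs and 6 of 9 in NT-iPSCs, where 13.1% of all miRNAs were in both comparisons, with medians of -2.16 and -2.18, while the medians of the 9 members of the miR-290 cluster in those comparisons were 0.48 and 0.17. The difference between the lists was not tested.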

How the data were processed

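Small RNA of 18 to 30 nt was sequenced by the authors, who removed adaptors and contaminants and normalized the miRNA reads. The deposited values, 1 for each miRNA in each library, are on a log2 scale, from the variance stabilizing transformation of DESeq that the authors applied. The submitters' notes name the build mm8. The miRBase release and the handling of strand are not given in the sources used here.

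The transformation was inverted, which gave whole reads (within 0.05 read) for 100% of 9458 nonzero values, and CPM, filters and arm ratios were computed from these reads. The deposited values are not counts, so the main tests were made on the log2 scale, with voom on the recovered reads as an alternative. Levels were tested with limma 3.58.1 (R 4.3.3, trended empirical Bayes, Benjamini-Hochberg 0.05) in 1 model of 5 group means, over the 732 miRNAs that reached 10 reads in 2 or more libraries, and arm ratios over 142 hairpins. Replicates were RNA batches, and their reads differed by more than counting noise (chi-square per degree of freedom 43.3 to 223). On simulated data for the reprogrammed mean against ESCs, 78.1% of level changes of 1 and 91.6% of changes of 2 (log2) were recovered over 703 miRNAs, and 1.76% of unchanged miRNAs were called. For arm ratios over 194 hairpins these were 80.4%, 97.2% and 3.70%. The simulated miRNAs had the same mean level in MEFs as in ESCs, while the members were all but absent from MEFs. The level rates therefore do not show how well changes of the members are recovered. Scripts ran in Python 3.11.15 with pandas 2.3.3, numpy 2.4.6 and scipy 1.17.1, and plots were drawn with matplotlib 3.10.9.

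All members were named in every comparison, and the members and lists were chosen with earlier results of these data known. Alternatives were other scalings, voom, other filters and pseudocounts, a minimum difference of 1, only the groups compared, each library left out and, chosen after seeing the data, the MEF libraries left out.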

Additional observations from a re-analysis of the deposited data

How the results depend on the processing

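No paired analysis was possible because no replicate number occurs in more than 1 group. Calls against MEFs stayed at 9 of 9 under all 21 alternatives, and calls of arm ratios against ESCs at 6 or 7 of 7 under all 15. Of 1548 single level values against ESCs or MEFs under an alternative, 1475 kept their sign and side of the threshold, 10 lost it, all of them for miR-292-5p, 61 gained it and 2 turned. Members called against ESCs rose to 7 for iPSCs, to 9 for NT-ESCs and to 8 for NT-iPSCs under voom, with only the groups compared, or without the MEF libraries, and ran from 4 to 7 in NT-ESCs with 1 library left out. Without the MEF libraries, 77.9%, 78.1% and 79.2% of all miRNAs were called for iPSCs, NT-ESCs and NT-iPSCs. Without MEF replicate 13, where the count in NT-ESCs was 7, 77.2% were. The shares under voom and with only the groups compared are not given here. By miRNA reads, MEF libraries were the deepest of the 12, and MEF replicate 13 held 61 reads of the members and the others 5 each.

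For most alternatives the share of all miRNAs called is not given here, so the counts below cannot be set against it. Between the reprogrammed types calls were few. In NT-ESCs against iPSCs they numbered 0 with total reads scaling or a minimum difference of 1, and 1 with trimmed mean scaling, no filter or only the groups compared. With a library left out they ran from 0 to 3. In NT-iPSCs against iPSCs they numbered 4 under voom, which added miR-290-5p (0.59, limma adjusted p = 0.0498), 2 with total reads scaling, where miR-294-5p was gained (-0.75, limma adjusted p = 0.00765, against -0.21), 1 with trimmed mean scaling and 0 with only the groups compared or a minimum difference of 1, and ran from 0 to 3 with a library left out. In NT-iPSCs against NT-ESCs they numbered 1 under voom or without the MEF libraries, and ran from 0 to 1.

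Values that turned sign passed no test. With total reads scaling, miR-290-3p in iPSCs against ESCs was 0.14, miR-292-5p, miR-293-3p and miR-294-5p in NT-ESCs against iPSCs were -0.020, -0.016 and -0.20, miR-291a-5p and miR-293-5p in NT-iPSCs against iPSCs were -0.37 and -0.36, and miR-290-5p in NT-iPSCs against NT-ESCs was -0.10. With trimmed mean scaling miR-291a-5p and miR-293-5p in NT-iPSCs against iPSCs were -0.029 and -0.017, and with upper quartile scaling miR-292-5p there was 0.017. With a library left out, miR-293-3p in NT-iPSCs against ESCs ran from -0.55 to 0.017, and miR-294-5p in NT-ESCs against iPSCs from -0.081 to 0.40. In NT-iPSCs against iPSCs, miR-292-5p ran from -0.27 to 0.15 and miR-294-5p from -0.45 to 0.033. In NT-iPSCs against NT-ESCs, miR-290-3p ran from -0.20 to 0.18 and miR-290-5p from -0.025 to 0.19. The arm ratio of miR-293 ran from -0.093 to 0.65 in iPSCs against ESCs and from -0.21 to 0.53 in NT-ESCs against iPSCs. In NT-iPSCs against iPSCs that of miR-290 ran from -0.40 to 0.089 and that of miR-292 from -0.64 to 0.0088. In NT-iPSCs against NT-ESCs the ranges were -0.052 to 0.24 for miR-290, -0.52 to 0.058 for miR-291a, -0.62 to 0.23 for miR-291b, -0.15 to 0.23 for miR-292 and -0.26 to 0.17 for miR-295. The causes were not tested.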
